A study of Homo sapiens with 6 samples.

Results

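The 10 genes described here encode cell surface proteins that mark mesenchymal stromal cells or stem-like breast cells: CD44, CD24, PROM1, PROCR, CXCR4, THY1, NT5E, ENG, FAP and NRP1. They were chosen by gene symbol in the platform's annotation, and they are 10 of 17687 named genes on a whole-transcript array. Each was represented by 1 of its 21448 probe sets. Transcript levels had been measured in HS578T, an established human breast carcinoma cell line of mesenchymal appearance, on 3 arrays of EP300 cells and 3 arrays of control cells. EP300 cells carried the plasmid pcDNA 3 with a cloned cDNA of EP300, a lysine acetyltransferase and transcriptional co-activator, and control cells carried pcDNA 3 without an insert. Both kinds of cell were stable transfectants, selected with G418, kept as pools of 200 clones or more, and grown under G418 in low-glucose medium that held insulin and 10% serum. The series describes 3 separate cultures for each condition and does not say whether those of a condition came from 1 pool, so the p-values measure the spread between cultures. The level of EP300 was not analysed here, so whether EP300 cells held more EP300 transcript is not checked in these values.

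Cell surface markers of these kinds are used to sort cells by antibody. In breast cancer, cells with much CD44 (a receptor for the matrix polysaccharide hyaluronan) and little CD24 (a small mucin-like protein held by a lipid anchor) are known for tumour-initiating ability and for mesenchymal traits. THY1 (CD90), NT5E (CD73) and ENG (CD105) are the surface proteins by which cultured mesenchymal stromal cells are defined. The arrays measured RNA of whole cultures, so a change in the number of cells that carry a marker and a change in RNA per cell cannot be told apart, and they did not measure protein at the surface.

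All values are the authors' deposited values, taken as log2 values, a scale inferred from the values themselves. The array medians lay between 4.46 and 4.50, and the lower quartiles between 3.47 and 3.50. Probes differ in how brightly they report, so a position relative to the array median or quartiles serves only to tell low signals from high ones, and levels of different genes are not compared. All 12 mesenchymal cell markers measured, VIM and FN1 among them, lay above the median probe-set level, against 4 of 11 epithelial, 3 of 8 leukocyte and 1 of 10 endothelial markers. The mean level over the epithelial markers ran from 4.50 to 4.75 on the EP300 arrays and from 4.54 to 4.65 on the control arrays. Over the leukocyte markers it ran from 4.17 to 4.34 on EP300 and from 4.25 to 4.32 on control arrays, and over the endothelial markers from 3.47 to 3.79 on EP300 and from 3.59 to 3.62 on control arrays. The part of these markers in the differences below was not tested. The mean level over the mesenchymal markers ran from 12.96 to 13.11 on EP300 and from 13.05 to 13.13 on control arrays. Of these 12 markers 3 had positive differences (EP300 minus control), the others being negative except for VIM, with a median of -0.15. Of them, 2 had an unadjusted limma p below 0.05 (6.52% of all probe sets). These were SNAI2 (0.71 ± 0.23 SE, limma adjusted p = 0.738) and COL1A2 (-0.49 ± 0.22 SE, limma adjusted p = 0.765). Of the 11 epithelial markers 8 had positive and 3 negative differences, with a median of 0.14. KRT18, a keratin of simple epithelia and the 1 of these with an unadjusted limma p below 0.05, averaged 10.02 in EP300 and 11.13 in control cultures, a difference of -1.11 ± 0.23 SE (limma adjusted p = 0.592). The adhesion proteins EPCAM and CDH1 were near or below the lower quartile, with means of 3.35 and 3.25 in EP300 cultures, against 3.60 and 2.54 in control cultures.

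CD24 and THY1 stood apart from the other members, in opposite directions. On the log2 scale CD24 was higher in EP300 cultures by 0.71 ± 0.21 and THY1 lower by 0.75 ± 0.20 (difference ± SE, limma, n = 3 arrays each), which is 1.63-fold and 1.68-fold. For both genes the EP300 and the control arrays did not overlap. Neither difference passed the limma test after Benjamini-Hochberg adjustment over all probe sets (adjusted p = 0.735 for both). No member passed: 0 of 10, against 0% of all probe sets. At an unadjusted limma p below 0.05 the count was 2 of 10 members, 1 higher and 1 lower, against 6.52% of all probe sets. These 2 were among the 7 members above the median probe-set level, where 7.59% of probe sets were called. The groups did not overlap for the same 2 members, against 12.2% of all probe sets and 13.8% of those above the median level. Because these genes were brought together when earlier results of the same arrays were known, those counts are a description.

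For CD24 and CD44, which together define the stem-like breast phenotype, the 250 bases before an annotated start are shown, as RefSeq gives them on GRCh38.p14. Capitals mark the GC box GGGCGG on either strand, a motif bound by SP1-type transcription factors. The CD24 stretch lies at chr6:106975628-106975877 on the minus strand and is the first of 3 start sites listed for the gene. The CD44 stretch lies at chr11:35138921-35139170 on the plus strand.
CD24: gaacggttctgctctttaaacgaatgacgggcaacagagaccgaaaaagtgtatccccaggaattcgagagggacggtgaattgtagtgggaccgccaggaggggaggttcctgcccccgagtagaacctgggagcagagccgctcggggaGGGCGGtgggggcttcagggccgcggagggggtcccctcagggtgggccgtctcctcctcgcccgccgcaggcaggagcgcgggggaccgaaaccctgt
CD44: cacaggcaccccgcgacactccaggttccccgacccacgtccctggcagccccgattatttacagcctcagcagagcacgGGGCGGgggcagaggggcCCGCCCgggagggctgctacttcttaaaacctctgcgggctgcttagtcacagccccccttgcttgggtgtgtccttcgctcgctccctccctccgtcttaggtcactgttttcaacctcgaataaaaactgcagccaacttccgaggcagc

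The CD24 stretch held 1 GC box and 20 CpG dinucleotides, and the CD44 stretch 2 GC boxes and 15 CpG dinucleotides. Among 35116 human promoter stretches of that length the median CpG count was 11, and 42.6% held a GC box. Neither stretch held the letters TATAAA on either strand, which 10.7% of all stretches did. Of the 10 members, 7 had entries in the promoter table and FAP, NRP1 and THY1 had none. Their 14 entries held the GC box in 8 cases, and TATAAA was found before 1 start of CXCR4 and before that of PROCR.

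**Figure D1:**
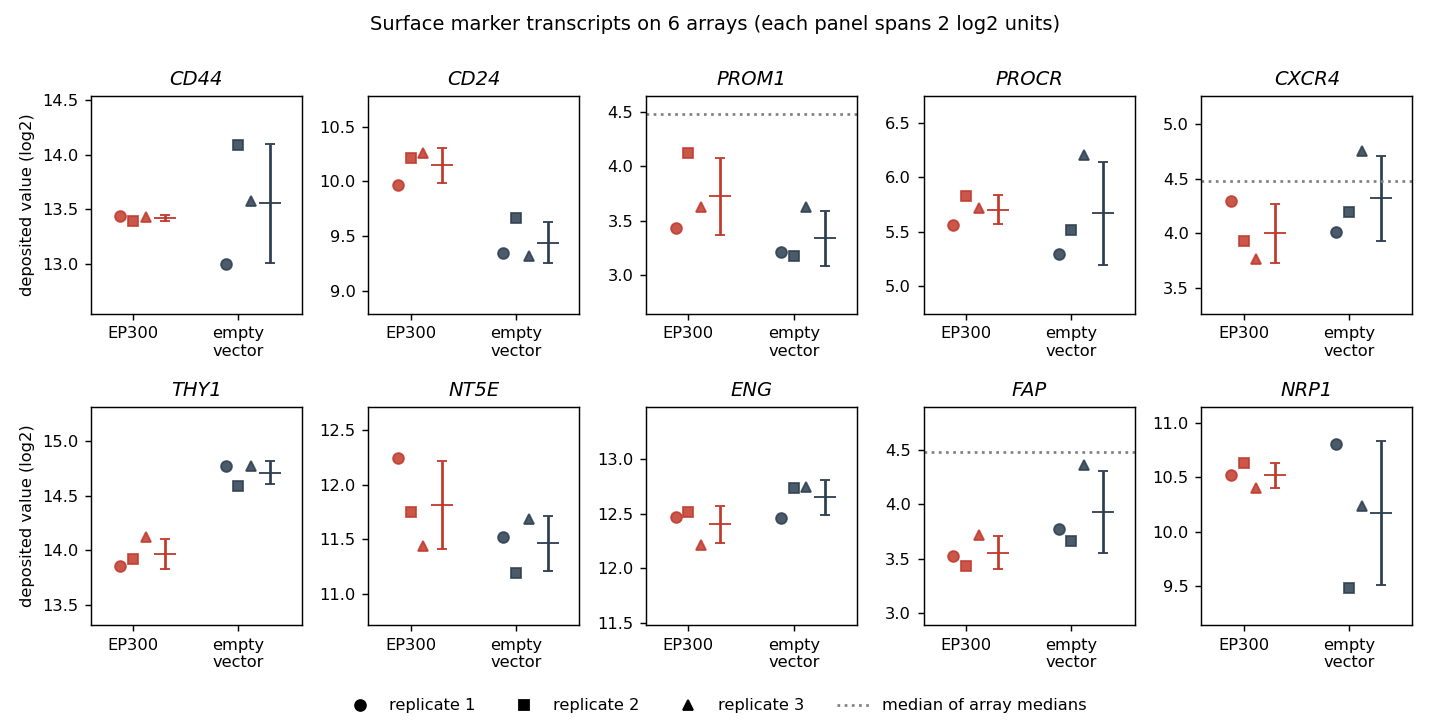
Deposited log2 values of the 10 members on each array, with 1 panel per gene. Symbols are replicates, bars show mean ± SD over 3 arrays, each panel spans 2 log2 units, and the dotted line is the median of the array medians. EP300 and control (empty vector) arrays are separate for CD24 and THY1 and overlap for the other 8 genes.

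Among the stem-like breast markers, CD24 measured 9.97, 10.21 and 10.26 on the EP300 arrays, against 9.34, 9.66 and 9.31 on the control arrays. The lowest EP300 array lay 0.31 above the highest control array. The 95% interval of the difference ran from 0.23 to 1.19, and an exact permutation test (two-sided) gave p = 0.1, the lowest value possible with 3 arrays a group. Pseudogene copies of CD24 are annotated elsewhere in the genome, and signal that the probe set may take up from them was not separated.

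CD44 measured 13.44, 13.39 and 13.43 on the EP300 arrays, against 12.99, 14.09 and 13.57 on the control arrays. The EP300 values lay within those of the controls. The difference was -0.13 ± 0.28 SE, with a 95% interval from -0.76 to 0.50 (limma adjusted p = 0.955). That interval lies within a 2-fold change either way, but limma takes a common spread for both groups, so it may be too narrow here. Without control replicate 2 the difference was 0.14, and without control replicate 1 it was -0.41. The spread differed between the groups, with an SD of 0.03 over the EP300 arrays and 0.55 over the control arrays. Of all probe sets that varied, 0.803% had a smaller SD among EP300 arrays. CD44 was singled out for its spread after its values were seen. The probe set covers several annotated CD44 transcripts with a single value, so a shift between standard and variant splice forms was not separated from a change in amount.

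Set together, the log2 ratio of CD24 to CD44 stood at 0.64, 0.93 and 0.94 above the control mean on the EP300 arrays. On the control arrays it stood at 0.46, -0.32 and -0.15 relative to that mean. The EP300 arrays lay above all control arrays, by least against control replicate 1, which had the lowest CD44 value. The ratio was computed after the values were seen and carries no test.

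**Figure D2:**
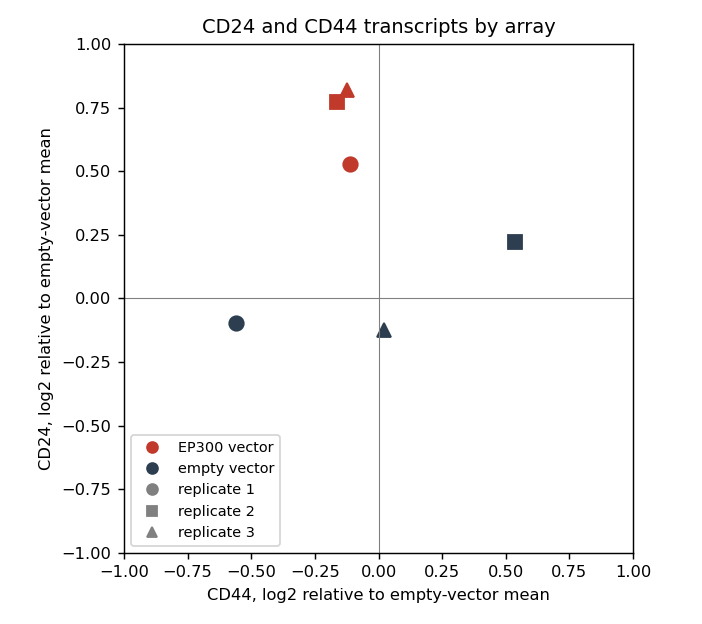
CD24 against CD44 on each array, both as log2 values relative to the mean of the control arrays. EP300 arrays lie 0.53 to 0.82 higher along the CD24 axis and close together along the CD44 axis, while control arrays spread from -0.56 to 0.54 along the CD44 axis.

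PROM1, PROCR and CXCR4 did not separate the groups. PROM1 encodes prominin 1 (CD133), a membrane protein of cell protrusions used as a stem cell marker. It measured 3.43, 4.12 and 3.63 on EP300 arrays, against 3.21, 3.18 and 3.63 on control arrays. All 6 values lay below the median of their array and 3 below its lower quartile, levels at which signal cannot be told from background here, so the difference is given in log2 alone. The difference was 0.39 ± 0.25 SE (limma adjusted p = 0.842), and without EP300 replicate 2 it was 0.19.

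PROCR encodes the endothelial protein C receptor, which in the mouse marks multipotent mammary stem cells. It measured 5.56, 5.83 and 5.72 on EP300 arrays, against 5.29, 5.52 and 6.20 on control arrays. The EP300 values lay inside the range of the controls, and the difference was 0.03 ± 0.27 SE (95% interval -0.57 to 0.63, limma adjusted p = 0.99). Its sign turned when any of 3 arrays was left out, with values down to -0.16 without control replicate 1.

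CXCR4 is the receptor of the chemokine CXCL12 and is known for its part in the homing of breast cancer cells to other organs. It measured 4.30, 3.93 and 3.77 on EP300 arrays, against 4.01, 4.19 and 4.76 on control arrays. Of the 6 values, 5 lay below the array median, the highest control value being the exception. The difference was -0.32 ± 0.26 SE (limma adjusted p = 0.882), and without control replicate 3 it was -0.10.

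Among the mesenchymal stromal markers, THY1, a lipid-anchored glycoprotein of fibroblasts that binds integrins, measured 13.85, 13.92 and 14.12 on EP300 arrays. On the control arrays it measured 14.77, 14.59 and 14.77. The highest EP300 array lay 0.47 below the lowest control array. The 95% interval of the difference ran from -1.21 to -0.29, and an exact permutation test (two-sided) gave p = 0.1. All 6 values lay above the upper quartile of their array and below the ceiling of the values at 19.9. Its adjusted p was 0.131 in a limma fit with a variance trend and robust estimation, the lowest of any member in any setting tried.

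NT5E and ENG, the other defining stromal markers, overlapped between the groups. NT5E is the enzyme that makes adenosine from AMP outside the cell. It measured 12.24, 11.75 and 11.44 on EP300 arrays, against 11.52, 11.19 and 11.69 on control arrays. EP300 replicate 1 was the highest and control replicate 2 the lowest, and the difference of 0.35 ± 0.26 SE (limma adjusted p = 0.873) was 0.13 without EP300 replicate 1.

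ENG encodes endoglin, a co-receptor for ligands of the TGF-beta family. It measured 12.47, 12.52 and 12.21 on EP300 arrays, against 12.46, 12.73 and 12.75 on control arrays. Control replicate 1 lay among the EP300 values, which is where the groups met. The difference was -0.25 ± 0.21 SE, with a 95% interval from -0.72 to 0.23 (limma adjusted p = 0.887). After quantile normalization the groups of ENG no longer overlapped, which made 3 members with CD24 and THY1. The share over all probe sets after that step is not given here.

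FAP, a surface protease of activated fibroblasts, measured 3.52, 3.43 and 3.72 on EP300 arrays, against 3.77, 3.66 and 4.36 on control arrays. All 6 values lay below the array medians. The difference was -0.37 ± 0.24 SE (limma adjusted p = 0.844), and without control replicate 3 it was -0.16.

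NRP1 encodes neuropilin 1, a co-receptor for class 3 semaphorins and for VEGF. It measured 10.52, 10.63 and 10.40 on EP300 arrays, against 10.80, 9.49 and 10.23 on control arrays. The EP300 arrays lay inside the range of the controls, which spanned 1.32. The difference was 0.34 ± 0.32 SE (95% interval -0.36 to 1.05, limma adjusted p = 0.895). It rested on single control arrays, at 0.66 without control replicate 1 and at -0.00124 without control replicate 2.

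**Figure D3:**
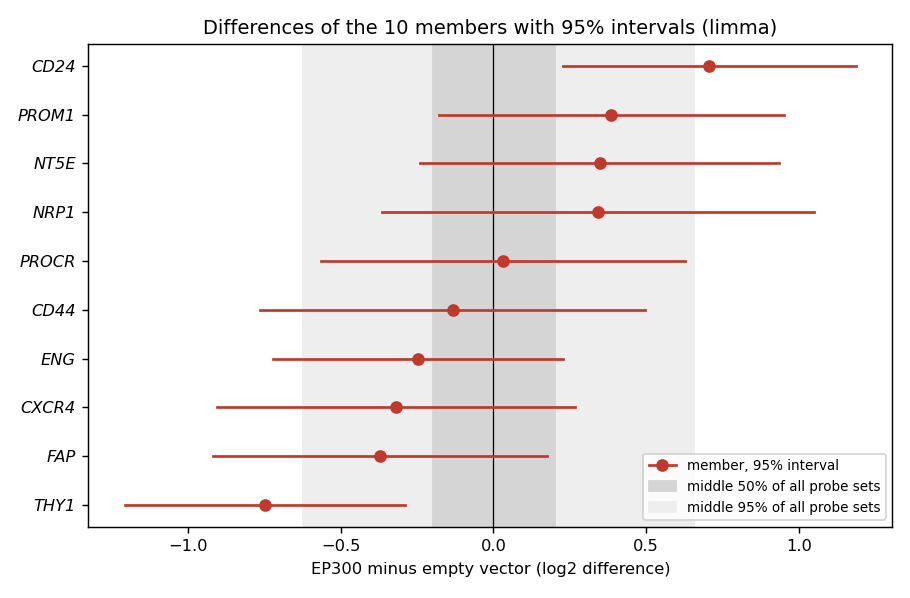
Log2 difference, EP300 minus control, of each member with its 95% limma interval, ordered by size. The grey bands hold the middle 50% and the middle 95% of all probe sets (-0.62 to 0.66), and the points of CD24 and THY1 lie outside the wider band while 8 intervals cross 0.

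Over the 10 members, 5 differences were positive and 5 negative, with a median of -0.05, against 10776 positive, 10672 negative and a median of 0.00098 over all probe sets. The median absolute difference was 0.35, against 0.20 over all probe sets. Of the 7 members above the median level, 4 (NT5E, ENG, CD44 and PROCR) had a 95% limma interval within a 2-fold change either way. These intervals take a common spread for both groups. The SDs were unequal for CD44 (0.03 in EP300, 0.55 in control cultures) and PROCR (0.13 and 0.47), so their intervals may be too narrow. Absolute differences larger than that of THY1 were found for 2.44% of all probe sets, and larger than that of CD24 for 3.18%. Control replicate 3 gave the highest control value for 7 of 10 members (34.6% of all probe sets that varied had theirs there), among them THY1, PROM1, FAP and CXCR4. The SD was smaller among EP300 than among control arrays for 6 of 10 members, against 49.1% of those probe sets.

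The 2 named genes whose centred values followed a member most closely over the 6 arrays were sought among 9255 genes above the median level. For THY1 these were BTBD7, with a root-mean-square distance of 0.036 on the log2 scale, and LOXL1, a lysyl oxidase that cross-links matrix proteins, at 0.0893. Their own differences were -0.68 and -0.69. For CD24 they were DDX46, an RNA helicase of the splicing machinery, at 0.0805 and XRCC2, a DNA repair protein, at 0.0903. Their differences were 0.62 and 0.65. With so many candidates and 6 arrays, close matches are found for any gene.

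The ligands, enzymes and partners of these proteins were followed in 10 gene lists, which hold 119 measured genes besides the members. By limma, 0 of the 119 passed the adjustment over all probe sets. At an unadjusted p below 0.05 there were 11, of which 7 were higher (all probe sets: 3.45%) and 4 lower (3.07%). The groups did not overlap for 7 with EP300 higher (6.3% of all probe sets) and 7 with EP300 lower (5.91%). Their median difference was -0.02. The 20 genes named from the lists had limma adjusted p from 0.689 to 0.878. They were taken for their small p, so their separation is a description.

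In the CD44 list, 12 genes had a median of -0.06, with 1 higher and 1 lower at an unadjusted p below 0.05. CEMIP, a hyaluronan-degrading protein, measured 7.56, 7.52 and 8.09 on EP300 arrays, against 8.09, 8.60 and 8.91 on control arrays. The difference was -0.81 ± 0.27 SE, and the highest EP300 array lay just below the lowest control array. The hyaluronan synthase HAS3 differed by 0.77 ± 0.34, with 5 of 6 arrays below the lower quartile. Of the linkers of CD44 to the actin cytoskeleton, EZR and MSN differed by -0.08 and 0.03, and RDX by -0.39 ± 0.20 SE (limma adjusted p = 0.792). RDX measured 9.78, 9.90 and 9.79 on EP300 arrays, against 10.11, 10.35 and 10.18 on control arrays, without overlap.

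In the CXCR4 list, 10 genes had a median difference that rounds to 0, with 1 higher and 0 lower at an unadjusted p below 0.05. The ligand CXCL12 measured 10.46, 10.75 and 10.28 on EP300 arrays, against 10.26, 9.63 and 9.94 on control arrays. The difference was 0.55 ± 0.24 SE, and the closest arrays of the groups were nearly equal. CXCL14, another chemokine, differed by -0.38 ± 0.20 at levels mostly below the lower quartile. The scavenging receptor ACKR3 differed by -0.04.

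In the NRP1 list, 17 genes had a median of 0.02, with 1 higher and 0 lower at an unadjusted p below 0.05. PGF, a growth factor of the VEGF family, measured 7.83, 7.44 and 8.03 on EP300 arrays, against 7.40, 7.11 and 6.90 on control arrays. The difference was 0.63 ± 0.24 SE, without overlap. VEGFC, the lymphatic member of that family, differed by 0.31 ± 0.20, also without overlap, while VEGFA differed by 0.02.

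In the ENG list, 17 genes had a median of 0.02, with 1 higher and 0 lower at an unadjusted p below 0.05. BMP4, a bone morphogenetic protein, differed by 0.75 ± 0.33 SE and the receptor gene TGFBR2 by 0.56 ± 0.28, and both overlapped between the groups. In the NT5E list, 13 genes had a median of -0.02 and 0 reached an unadjusted p below 0.05 (limma), the smallest p being that of the nucleoside transporter SLC29A2 (-0.35 ± 0.28). The adenosine receptor ADORA2B differed by -0.46 ± 0.37.

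In the PROCR list, 9 genes had a median of -0.04, with 1 higher and 1 lower at an unadjusted p below 0.05. PROS1, the protein S cofactor of activated protein C, measured 3.70, 3.53 and 3.72 on EP300 arrays, against 3.99, 4.85 and 4.84 on control arrays. The difference was -0.91 ± 0.27 SE, and 4 of the 6 values lay below the array medians. F3, the tissue factor that starts coagulation, differed by 0.74 ± 0.25 without overlap. The list's leading genes stood on opposite sides.

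Among 10 genes for ligands of THY1 and CD24 the median was -0.02 and 0 had an unadjusted p below 0.05. The integrin gene ITGAV measured 9.38, 9.59 and 9.32 on EP300 arrays, against 8.91, 8.62 and 9.24 on control arrays, a difference of 0.51 ± 0.23 SE. Its partner ITGB3, with which it binds THY1, differed by -0.39 ± 0.25.

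Among 12 genes of the FAP list and other fibroblast surface markers the median difference also rounds to 0, with 1 higher and 2 lower at an unadjusted p below 0.05. NCAM1, the neural cell adhesion molecule, measured 8.52, 8.78 and 8.33 on EP300 arrays, against 9.63, 9.40 and 9.49 on control arrays. The EP300 arrays lay well below the controls, by -0.96 ± 0.22 SE or 1.95-fold, and the limma adjusted p was 0.689. VCAM1, an adhesion molecule for leukocytes, differed by 0.75 ± 0.29 with overlap, and 4 of the 6 values lay below the array medians. The growth factor receptor gene PDGFRA, named because it completes that count, differed by -0.74 ± 0.29 with 5 of 6 arrays below the lower quartile.

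Among 17 other surface markers of mammary stem and progenitor cells the median was -0.21, with 10 negative and 7 positive differences and 1 gene, higher, at an unadjusted p below 0.05. That median was 0.01 without control replicate 1 and -0.02 without control replicate 3. The gene was NGFR, a neurotrophin receptor, at 0.67 ± 0.24 SE and with all 6 arrays below the array medians. CD151, a tetraspanin, measured 9.89, 9.91 and 9.96 on EP300 arrays, against 10.11, 10.43 and 10.71 on control arrays, a difference of -0.49 ± 0.22 without overlap. Of 7 surface markers that mesenchymal stromal cells lack, 0 had an unadjusted p below 0.05, and the median was -0.07. The leukocyte marker PTPRC differed by -0.51 ± 0.26 at levels below the array medians, and CD79A of B cells by -0.36 ± 0.24.

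**Figure D4:**
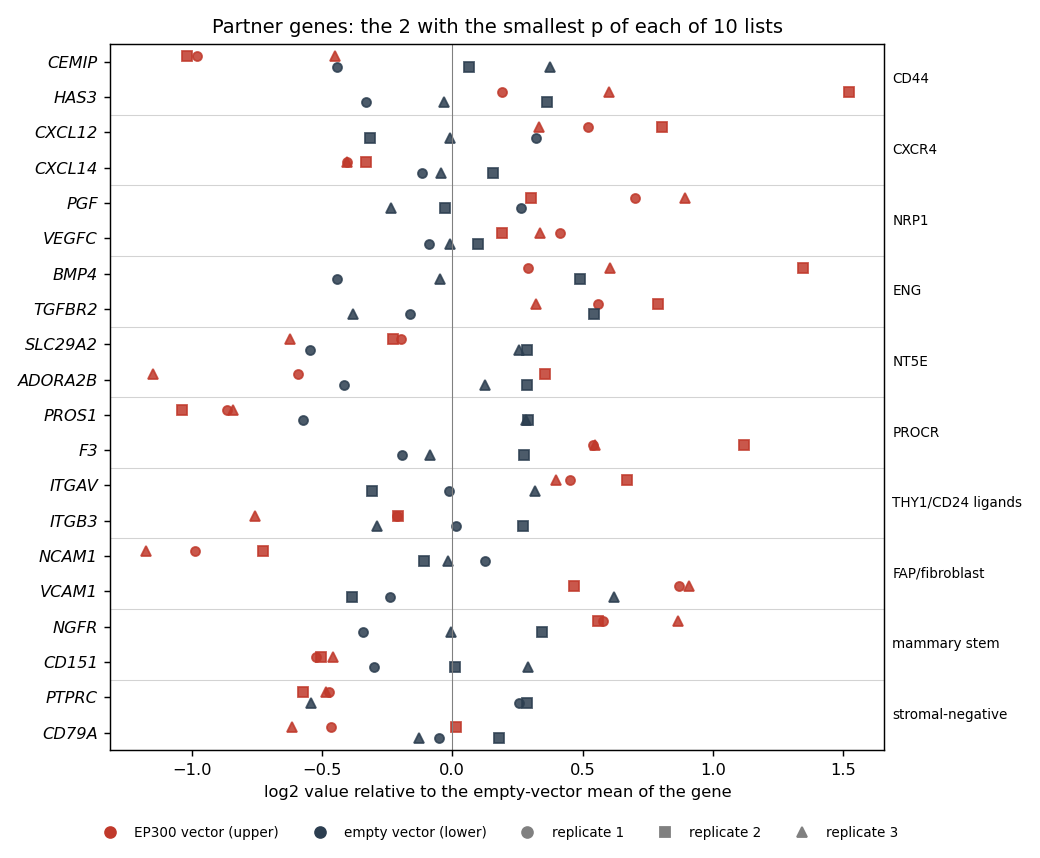
The 2 genes with the smallest p of each list, as log2 values on each array relative to the gene's control mean, with EP300 arrays drawn above control arrays in each row. The groups are separate for 11 of the 20 genes, NCAM1, F3 and PGF among them, and overlap for the rest.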

How the data were processed

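Total RNA had been purified on Qiagen RNeasy columns and labelled with Affymetrix WT PLUS reagents, per the labels' protocols. The authors' deposited table holds 1 value per probe set and array, taken as log2 because the values run from 1.79 to 19.93 with near-equal quartiles. Per the submitters' processing notes Partek 6.6 was used. The sources used here do not give the background correction, normalization or genome build. The platform annotation named 17709 of 21448 probe sets (17.4% had no gene), all of them found in RefSeq.

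EP300 minus control was fitted on all probe sets with limma 3.58.1 (lmFit, eBayes; R 4.3.3), without filter or covariate. P-values were adjusted by Benjamini-Hochberg across the whole table, and 0.05 was the threshold. In 20 simulations on 21448 probe sets the fit recovered 11.6% of changes of 1 and 88.5% of changes of 2 on the log2 scale. Each simulation held 200 changed probe sets, some of them changed by 3, in independent normal noise. The rates hold for that setting only, since 0 probe sets passed in the deposited values and large planted changes ease the adjustment. The number of arrays limits the precision.

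The members and lists were chosen with earlier results of these data known. Named genes are the members and the 2 of each list with the smallest p (1 probe set a gene, the highest mean). PDGFRA, EZR, MSN, RDX, ACKR3, VEGFA, KRT18, CDH1, EPCAM, SNAI2 and COL1A2 were named after their values were seen. No pairing of the arrays by replicate number was seen in the values.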

Additional observations from a re-analysis of the deposited data

How the results depend on the processing

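Each of the 10 differences was recomputed under up to 13 alternatives: quantile normalization, median centring, probe sets above the median level (which leaves 7 members), a replicate block, a single probe set for each gene, robust estimation with a variance trend, removal of the 19 constant probe sets, and leaving out each array. No member passed the limma adjustment in any of these, the lowest adjusted p being 0.131. CD24 (0.64 to 0.82) and THY1 (-0.83 to -0.68) kept their direction and an unadjusted p below 0.05 in all 13. The sign turned only when 1 array was left out, for CD44 (-0.41 to 0.14), PROCR (-0.16 to 0.30, with negative values of -0.157, -0.0462 and -0.0317) and NRP1 (-0.00124 to 0.66). The count of members whose groups do not overlap ran from 2 to 5 without 1 array, where fewer arrays make separation easier. The share over all probe sets in those settings is not given here, so that count is not a result about the members. Over all probe sets, 4 (IGFBP3, SCD, AKR1C1 and TAGLN, none of them a member) passed with a variance trend, and the count at an unadjusted p below 0.05 was 848 of 10724 above the median level, which are fewer probe sets, against 1399 of 21448. With the replicate block that unadjusted count was 1295 of 21448, 2 of them members, and 0 probe sets passed the adjusted threshold. The deviations of same-numbered arrays correlated at -0.00153, -0.00528 and -0.00893, so no pairing by number was seen in the values. Whether same-numbered cultures were handled together cannot be told from these correlations. List medians moved by more than the replicate spread in 15 of 130 cases.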
